A study of Mus musculus with 6 samples.

Results

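The genes of the cytosolic ribosomal proteins (RP genes) were followed through the cell types and preparations of mouse glomeruli, the tufts of capillaries where blood is filtered in the kidney. Members were taken by name: Rpl or Rps, a number and an optional suffix a, l, x or y, together with Rplp0, Rplp1, Rplp2 and Rpsa. This gave 82 of the 49492 gene names in the tables, 50 of the large and 32 of the small subunit, and all 82 stood in both bulk tables and had at least 1 transcript count in the cells kept. Names of pseudogene models (with -ps) fell outside the rule. So did Rps3a1, the gene of S3a, as well as Fau, which encodes a ribosomal protein fused to a ubiquitin-like domain, and Rack1.

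All samples were from male CD1 IGS mice (an outbred stock) aged 8 weeks, with no genetic or drug treatment named in the labels. The Drop-seq group held 4 libraries (replicates 1 to 4) of glomerular cells that had been dissociated and then fixed in 80% methanol. Drop-seq pairs each cell with a barcoded bead in a droplet, and a unique molecular identifier (UMI) lets a captured transcript be counted a single time. Bulk RNA-seq was made once from live whole glomeruli (input 500 ng RNA) and once from glomerular cells that were dissociated, fixed in 80% methanol and sorted (95 ng). The labels do not say which animals the libraries came from. The spread behind each p-value is how far the differences between types vary from library to library, and it may be technical.

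A ribosome is built from ribosomal RNA and from 1 copy of nearly every ribosomal protein, so these genes are usually transcribed in concert in all cells and rank among the most abundant messenger RNAs. In mammals their messengers begin with a C followed by a run of pyrimidines, the terminal oligopyrimidine (TOP) motif, through which the kinase mTORC1 and the protein LARP1 control their stability and translation. A few members have paralogues with restricted expression, such as Rpl3l in striated muscle and Rpl10l and Rpl39l in the testis.

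The 4 Drop-seq tables held 15465 barcodes and 3528543 to 6411775 UMIs each, of which 13993 cells had at least 300 genes and no more than 20% mitochondrial UMIs and were kept (median 965 UMIs). Clustering without the RP genes gave podocyte-like (10353 cells), endothelial-like (1864), tubular-like (933), parietal epithelial-like (386), mural-like (345, mesangial and smooth muscle or renin markers), immune-like (54) and unnamed cells (58). All 8 podocyte, 8 endothelial, 6 mesangial and 8 smooth muscle or renin markers were highest in their own type, as were 12 of 15 tubular and 4 of 6 parietal epithelial markers. The same lists had named the clusters, so these counts were largely fixed by the naming. The parietal epithelial-like cells also carried the 8 podocyte markers at 13064 ± 2153 CPM (UMIs per 1000000 UMIs of a sum of cells, SD, n = 4), against 20178 ± 1442 in podocyte-like cells, so that name is weakly supported. In endothelial-like, mural-like and tubular-like cells the podocyte markers summed to 4193, 4025 and 2164 CPM. 1 podocyte-like cluster was mostly of replicate 4 (1406 of 1710 cells). 7 barcodes occurred in 2 libraries, 1 in 3 and 7 in 4, and among kept cells 3 occurred in 2 libraries.

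Endothelial-like cells devoted the largest share of their UMIs to RP genes among the 5 types with enough cells to test. The share was 7.36%, 6.70%, 7.13% and 6.80% in replicates 1 to 4 (6.998% ± 0.303, SD, n = 4). In podocyte-like cells, the filtering epithelium of the glomerulus, it was 4.98%, 4.17%, 4.52% and 4.20% (4.47% ± 0.378). The lowest endothelial-like library lay above the highest podocyte-like library, so these groups did not overlap. Parietal epithelial-like cells followed with 5.64%, 4.67%, 4.98% and 4.85% (5.03% ± 0.421). Mural-like cells held 5.51%, 5.24%, 4.93% and 4.82% (5.13% ± 0.309). In them smooth muscle or renin markers summed to 19730 ± 5394 CPM (SD) and mesangial markers, those of the tuft, to 1370 ± 312 CPM. Tubular-like cells held the least, 4.45%, 3.64%, 3.98% and 3.71% (3.95% ± 0.364). Within libraries, the share of parietal epithelial-like cells exceeded that of podocyte-like cells in 4 of 4 (by 0.566 ± 0.0975 percentage points, SD), and that of podocyte-like cells exceeded that of tubular-like cells in 4 of 4 (by 0.523 ± 0.0235). The exact two-sided sign-flip permutation p was 0.125 for each, the smallest that 4 libraries allow. The gap between podocyte-like and tubular-like cells narrowed with mitochondrial UMIs left out. Of nuclear-encoded UMIs alone, the share was 4.67% ± 0.397 in podocyte-like and 4.58% ± 0.410 in tubular-like cells. Without cells above 10% mitochondrial UMIs it was 4.48% ± 0.375 and 4.46% ± 0.286. Mural-like cells exceeded parietal epithelial-like cells in 1 of 4 libraries, so these neighbours were not told apart. Replicate 1 was highest in each of the 5 types.

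Both subunits followed this order at its ends. Large subunit genes took 3.73% ± 0.163 of UMIs in endothelial-like, 2.51% ± 0.213 in podocyte-like and 2.19% ± 0.195 in tubular-like cells, and small subunit genes 3.27% ± 0.156, 1.96% ± 0.172 and 1.75% ± 0.173. The 54 immune-like cells had a still larger RP share, 13.6%, 8.99%, 10.9% and 9.05%, resting on 8 to 17 cells a library, and were too few to test. Within the endothelial-like cells, 408 cells led by the arterial genes Fbln5 and Jag1 held 7.39% and the other 1456 held 6.93%. Podocyte-like clusters ran from 2.92% (57 cells with a median of 602 UMIs) to 5.42% (1860 cells).

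**Figure D1:**
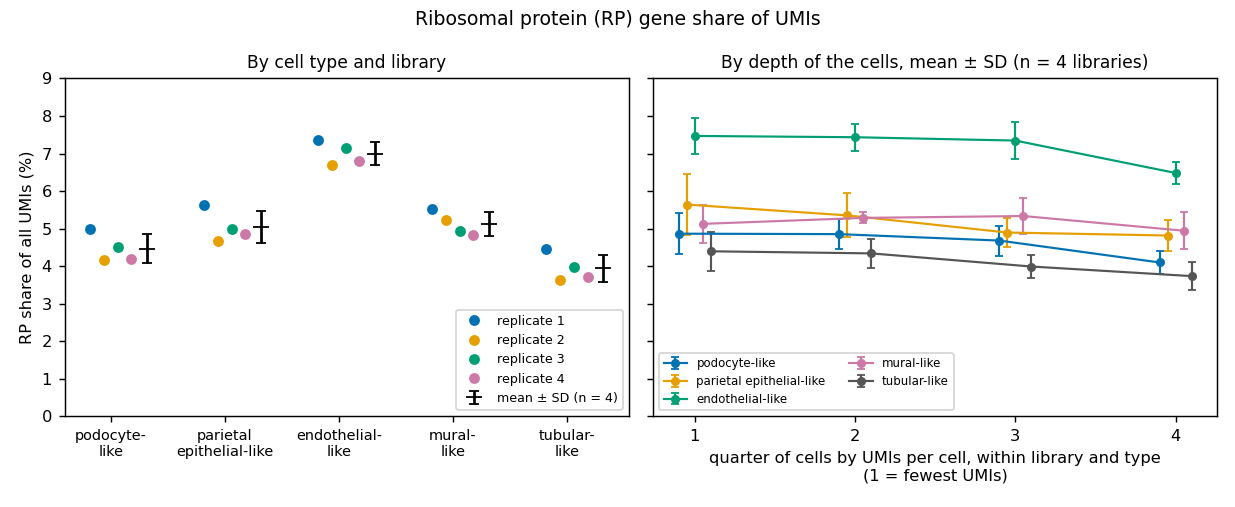
RP share of all UMIs in percent. The left panel has 1 point per library for each of the 5 cell types with mean ± SD, and the right panel splits the cells of each library and type into quartiles by UMIs per cell (mean ± SD over 4 libraries). All 4 endothelial-like libraries lie between 6.70% and 7.36%, above every library of the other types, and in each of the 5 types the mean is lowest in the last quartile.

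Depth differed between the types and moved with the share. The median was 641.5 UMIs per cell in endothelial-like, 786 in mural-like, 1016 in podocyte-like, 1013 in parietal epithelial-like and 1725 in tubular-like cells. From the quartile of cells with fewest UMIs to that with most, the RP share went from 7.47% to 6.48% in endothelial-like, from 4.86% to 4.10% in podocyte-like and from 4.40% to 3.73% in tubular-like cells. The deepest endothelial-like quartile, 6.25% to 6.89% over libraries, stayed above the shallowest podocyte-like quartile, 4.42% to 5.60%. With cells thinned to 500 UMIs, the median cell showed 26 different RP genes in endothelial-like, 20 in mural-like, 20 in parietal epithelial-like, 19 in podocyte-like and 16 in tubular-like cells. Thinning left out 379 endothelial-like and 652 podocyte-like cells with fewer UMIs. Unthinned, the medians were 33, 29, 35, 33 and 42.

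Red blood cell markers were uneven among the endothelial-like sums, at 887, 3.78, 2352 and 5.50 CPM in replicates 1 to 4. The endothelial-like RP share was 7.36% and 7.13% in replicates 1 and 3, and 6.70% and 6.80% in replicates 2 and 4, where these markers were near 0. Podocyte-like cells held 4.98%, 4.52%, 4.17% and 4.20% in the same order of replicates. Immune markers summed to at most 27.5 CPM in any endothelial-like library (mean 15.2, against 1.98 in podocyte-like cells). Of the 8 markers, Cd74 had 14 UMIs there, H2-Aa 7 and Tyrobp 1, and Ptprc, Lyz2, C1qa, Cd52 and Cd3e had 0. The part of red blood cell or immune RNA in the RP share was not tested.

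Gene by gene, 77 of the 82 members had enough UMIs to be tested over the 20 sums of library and type, each type set against the average of the remaining 4. In endothelial-like cells 72 of the 77 were higher and 0 lower (edgeR, adjusted p under 0.05), where 28.0% of all 7303 genes tested were higher and 23.5% lower. At unadjusted p under 0.05, 0 were lower as well. 71 of the 72 were higher in 4 of 4 libraries. The median log2 fold of the 77 was 0.62, against -0.01 over all genes. Of the large subunit 42 of 45 and of the small subunit 30 of 32 were higher. The 5 members not called were Rpl27 (log2 fold 0.19), Rps4l (0.52), Rps27l (0.01), Rpl10 (-0.06) and Rpl21 (-0.08), which were named after their values were seen. By DESeq2 and under every other alternative run, 68 to 73 members were higher and 0 lower.

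Rps14, a protein of the small subunit platform, showed the largest endothelial-like rise. Its level was 2476, 2164, 2285 and 2315 CPM in endothelial-like and 1120, 881, 888 and 915 in podocyte-like cells (log2 fold 1.07 ± 0.08, SE, adjusted p = 2.62e-19). Every endothelial-like library lay above every podocyte-like one. Rps3, which lines the entry of the messenger RNA channel, stood at 1594, 1672, 1725 and 1669 CPM, and no other type had a library above 1003 (log2 fold 0.95 ± 0.08). Rpl34, Rps4x, the X-linked form of S4, Rps23, of the decoding centre, Rps19, the gene most often mutated in Diamond-Blackfan anaemia, and Rpl36a rose by log2 folds of 0.94, 0.91, 0.90, 0.87 and 0.86, each in 4 of 4 libraries.

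The P stalk, the arm of the large subunit that recruits elongation factors, is formed by the products of Rplp0, Rplp1 and Rplp2. Rplp1 stood at 2123, 1914, 2220 and 1831 CPM in endothelial-like and 1138, 1013, 1014 and 899 in podocyte-like cells. It rose by a log2 fold of 0.75 ± 0.08 in endothelial-like cells and fell by 0.54 ± 0.08 on the log2 scale in podocyte-like cells. Rplp0 rose less, at 836 ± 32.5 CPM in endothelial-like and 505 ± 32.5 in podocyte-like cells (log2 fold 0.43 ± 0.08 in endothelial-like cells). Rplp2 rose least of the 3, with 1101 ± 150 and 811 ± 85.0 CPM (log2 fold 0.40 ± 0.08). Rpsa, also known as the laminin receptor precursor, stood at 484, 530, 598 and 649 CPM in endothelial-like against 380, 339, 401 and 379 in podocyte-like cells (log2 fold 0.49 ± 0.09).

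**Figure D2:**
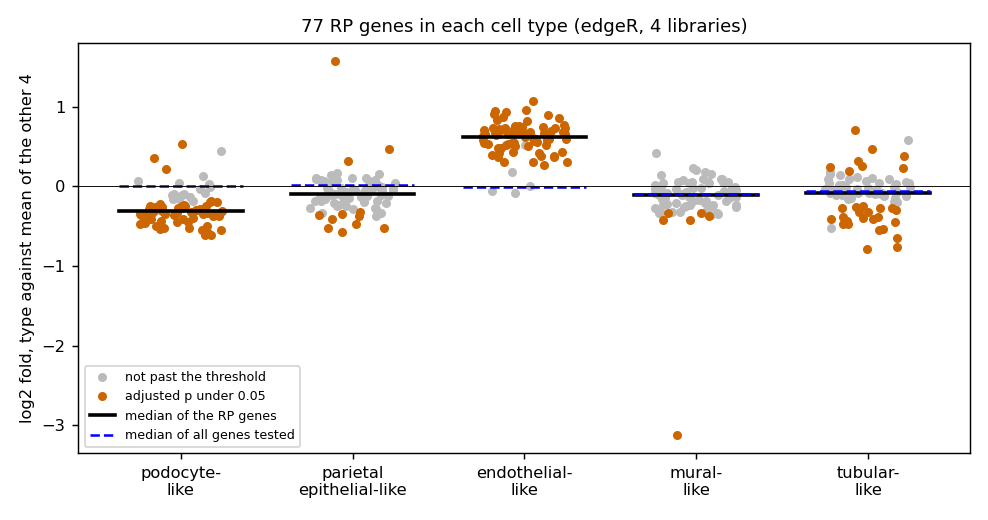
Log2 fold of each of the 77 RP genes tested (points), each cell type set against the average of the remaining 4, with the median of the RP genes (solid line) and of all genes tested (dashed line). The points of endothelial-like cells lie around a median of 0.62 and those of podocyte-like cells around -0.30; the single low point of mural-like cells is Rps4l, which rests on 1 UMI, and the podocyte-like median turns to 0.09 with no filter on low counts.

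Set against each other type in turn, endothelial-like cells had 72 members higher and 2 lower than podocyte-like cells, where 30.4% and 29.9% of all genes were called. They had 65 higher and 1 lower than parietal epithelial-like cells (18.6% and 16.8% of all genes), 65 and 0 against mural-like cells (14.6% and 10.6%) and 67 and 1 against tubular-like cells (32.3% and 29.0%). The members lower in endothelial-like cells were Rpl10 and Rpl21 against podocyte-like, Rpl10 against parietal epithelial-like and Rps27l against tubular-like cells. Among the other 4 types the splits were smaller. Podocyte-like cells had 4 members higher and 14 lower than mural-like cells (15.5% and 16.3% of all genes) and 10 higher and 30 lower than tubular-like cells (28.5% and 29.4%). The split against tubular-like cells runs opposite to the RP share of all UMIs, which was lower in tubular-like cells. TMM scaling factors were 0.830 to 0.854 in tubular-like and 1.01 to 1.04 in podocyte-like sums. Parietal epithelial-like cells had 4 higher and 2 lower than mural-like (9.11% and 9.59%) and 13 higher and 9 lower than tubular-like cells (19.1% each), and mural-like cells had 9 higher and 9 lower than tubular-like cells (18.4% and 20.3%). The pair contrasts were added after the data were seen and were fitted with TMM scaling only.

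The initiation regions of the genes that moved together were read for the pyrimidine run of the TOP motif. RefSeq promoter entries (GRCm38.p6) matched 60 members, some with several starts. Within 15 bases on either side of a start, 33 of the 60 (55.0%) held a run of at least 7 C or T on the gene strand, against 21.3% of 27025 genes. On the opposite strand 4 of the 60 (6.67%) did, against 23.1%. Over the 300 bases of the entry, CTTTCC stood on the gene strand of 41.7% of members and 16.0% of genes, or on either strand of 53.3% and 29.3%. CCGGAAG stood on the gene strand of 26.7% and 5.40%, or on either strand of 41.7% and 9.93%. CTTTCC is itself a pyrimidine run of 6, so it can overlap the longer runs. The windows below run 5′ to 3′ on the gene strand with such runs of at least 7 in capitals, and are shown for members that carry the endothelial-like rise or depart from it.
Rps27, chr3:90213634-90213663, minus strand: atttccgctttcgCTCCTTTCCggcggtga
Rpl34, chr3:130730323-130730352, minus strand: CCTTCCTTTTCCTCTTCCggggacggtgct
Rps15a, chr7:118116133-118116162, minus strand: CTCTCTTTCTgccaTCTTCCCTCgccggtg
Rpl7a, chr2:26910792-26910821, plus strand: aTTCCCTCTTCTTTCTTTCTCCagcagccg
Rplp2, chr7:141447636-141447665, plus strand: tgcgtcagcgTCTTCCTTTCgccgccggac
Rps3, chr7:99483695-99483724, minus strand: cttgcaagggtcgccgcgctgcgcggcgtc
Rpl10, chrX:74270801-74270830, plus strand: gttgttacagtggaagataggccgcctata
Of these windows the first 5 hold a run and the last 2 do not. They are a selection and do not follow the order of the rise. Among members with large rises that are not shown, Rps4x, Rps23 and Rpl36a (log2 folds 0.91, 0.90 and 0.86) had no run. Rps19 (0.87) had a run at 1 of its starts. The starts were annotated and not measured in these cells, and a run on either side of a start counted. A window with or without a run therefore does not show whether the messenger begins with the TOP motif. The median endothelial-like log2 fold was 0.57 over the 32 tested members with a run (0.01 to 0.94) and 0.62 over the 24 tested without one (-0.06 to 0.95), ranges that overlap almost entirely.

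In podocyte-like cells 58 of the 77 members were lower and 3 higher, where 21.1% of all genes were lower and 24.5% higher. The median log2 fold was -0.30 (all genes 0.00), and 57 of the 58 were lower in 4 of 4 libraries. Without a filter on low counts the call turned, to 21 higher and 3 lower with a median of 0.09, while the median of all genes moved to 0.50, so that the members stayed 0.41 below it. Left without endothelial-like cells in the comparison, 39 of 76 members were lower and 3 higher (21.6% and 22.6% of 5394 genes), with a median of -0.22. In that comparison parietal epithelial-like cells had 4 higher and 3 lower (12.2% and 6.86%), mural-like cells 7 and 0 (15.0% and 14.1%) and tubular-like cells 20 and 11 (28.8% and 28.0%).

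The largest podocyte-like falls were in Rps15a (log2 fold -0.61 ± 0.09), Rps2 (-0.61 ± 0.08), Rps14 (-0.58 ± 0.08), Rpl29 (-0.55 ± 0.18), Rpl36a (-0.54 ± 0.09), Rplp1, Rpl23 (-0.53 ± 0.08) and Rplp0 (-0.52 ± 0.08). Rps15a stood at 512, 451, 520 and 429 CPM in podocyte-like cells and 871, 847, 1037 and 1023 in endothelial-like cells. Rps2, which lies with Rps3 at the messenger RNA entry, stood at 660, 582, 697 and 587 in podocyte-like and 967, 776, 930 and 927 CPM in tubular-like cells. Rpl23, which can also bind the p53 regulator Mdm2, stood at 499 ± 39.3 CPM in podocyte-like cells and 975 ± 53.8 in endothelial-like cells. Without replicate 2 the fall of Rpl29 was not called (-0.50, adjusted p = 0.0625).

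Rpl10 went the other way. Its product joins the large subunit late in assembly and is needed for the subunit to become active. It was the most abundant member by UMIs, with 1681, 1503, 1447 and 1408 CPM in podocyte-like cells, 1269, 1063, 888 and 1047 in endothelial-like cells and 721, 617, 604 and 482 in tubular-like cells. No tubular-like library reached any of the other 2 types. Its log2 fold was 0.53 ± 0.07 in podocyte-like (adjusted p = 6.86e-09), 0.47 ± 0.09 in parietal epithelial-like and -0.77 ± 0.09 in tubular-like cells. Rps16 and Rpl21 were the other 2 members higher there (log2 folds 0.36 ± 0.07 and 0.21 ± 0.08). Rps16 stood at 1037, 907, 1067 and 912 CPM there and at 503, 430, 509 and 404 in tubular-like cells. The Rpl21 rise in podocyte-like cells was not called without replicate 2 (adjusted p = 0.0598) or replicate 4 (0.102), nor by DESeq2 (0.193).

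Parietal epithelial-like cells had 3 members higher and 9 lower (10.2% and 4.87% of all genes), with a median of -0.09 that turned to 0.01 under scaling by total UMIs, where all genes stood at 0.12. The lower count was 3 under that scaling, 15 with scaling from genes other than RP genes, 16 by DESeq2, 21 without cells carrying markers of 2 types and 34 (0 higher) with no filter on low counts, where all genes stood at -0.36. Rps4l, Rpl10 and Rps12 were higher. Rpl7a (-0.58 ± 0.13), Rps27l (-0.53 ± 0.15), Rpl34 (-0.52 ± 0.16), Rpl36a (-0.47 ± 0.15), Rpl41, Rps18, Rps14 and Rpl19 were the larger falls. Many of these calls hung on single libraries. Rps12 was not called when any 1 library was left out (adjusted p = 0.0606 to 0.193), nor Rps4l without replicate 1, 2 or 4 (0.0647 to 0.207). Rps27l was lost without replicate 1 (0.0865) or 4 (0.0502), Rpl36a and Rps14 without replicate 3 (0.092 and 0.131), and Rpl19 and Rps18 without replicate 1 (0.057 and 0.135) or 3 (0.111 and 0.205). Against podocyte-like cells alone 0 members were higher and 1, Rps21, lower in podocyte-like cells (2.23% and 4.18% of all genes; 0 and 20 members at unadjusted p under 0.05), with DESeq2 not run on pairs.

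Mural-like cells had 0 members higher and 6 lower by edgeR (11.7% and 8.05% of all genes), with a median of -0.11 beside -0.10 for all genes. DESeq2 called 2 higher and 3 lower, and at unadjusted p under 0.05 edgeR had 0 higher and 17 lower. Rps12 (-0.43 ± 0.12), Rps7 (-0.42 ± 0.14), Rps27 (-0.37 ± 0.11), Rps3 (-0.34 ± 0.11) and Rps4l were among those that fell, and all 6 belong to the small subunit. Rps7 and Rps3 were not called when any 1 library was left out (adjusted p = 0.0535 to 0.125 and 0.0542 to 0.1), Rps12 not without replicate 3 (0.103), and Rps4l not without replicate 4 (0.133). Rps12 stood at 691, 846, 608 and 563 CPM in mural-like cells against 932, 741, 963 and 764 in podocyte-like cells, and these ranges overlap. The 6 became 3 to 5 when 1 library was left out, 1 (with 3 higher) under scaling by total UMIs, 1 with the mitochondrial limit of 10% and 32 with no filter on low counts, where all genes stood at -0.44.

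Tubular-like cells had 8 of the 77 members higher and 22 lower, where 27.1% and 26.9% of all genes were called, and a median of -0.08 (all genes -0.06). Under scaling by total UMIs 1 was higher and 62 lower with all genes at -0.37, so the split rests on the scaling, and DESeq2 moved the median to 0.01. Rps12 fell most (-0.78 ± 0.10), at 489, 375, 557 and 289 CPM, against 1232, 1116, 1252 and 1094 in endothelial-like cells. Rpl10, Rps16 (-0.65 ± 0.09), Rps25 (-0.55 ± 0.09), Rps27 (-0.53 ± 0.09), Rps27a, which encodes ubiquitin fused to S27a, Rpl30 and Rps19 fell as well. Rps27l (0.71 ± 0.10), Rpl7a (0.47 ± 0.09), Rps2 (0.38 ± 0.08), Rpl11 (0.32 ± 0.09), Rps29, Rplp1 and Rplp0 were among those that rose. Rplp0, Rplp1 and Rps29 turned to -0.11, -0.07 and -0.04 under scaling by total UMIs. Without replicate 3, Rplp0, Rplp1 and Rps29 were not called (adjusted p = 0.159, 0.0773 and 0.0599), nor was Rplp0 without replicate 1 (0.13). Tubular-like cells also held 13.9% ± 0.529 mitochondrially encoded UMIs, against 6.71% ± 0.358 in endothelial-like and 4.28% ± 0.152 in podocyte-like cells. With cells above 10% mitochondrial UMIs left out, 1 member was higher and 9 lower. The RP share of tubular-like cells was then 4.46%, against 4.48% in podocyte-like cells.

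To see which members departed from the family itself, the RP total of each sum was used as its library size. In podocyte-like cells 10 members were then higher and 11 lower (all genes 41.2% and 13.5%), in endothelial-like cells 10 and 13 (13.5% and 52.2%), in tubular-like cells 15 and 14 (30.9% and 22.2%), in parietal epithelial-like cells 3 and 3 (12.2% and 3.83%) and in mural-like cells 1 and 1 (12.9% and 4.90%). Rpl10, Rps16 and Rpl21 stood above the family in podocyte-like cells (log2 0.78, 0.62 and 0.47) and below it in endothelial-like (-0.66, -0.29 and -0.68) and tubular-like cells (-0.64, -0.52 and -0.26). Rps27l and Rpl7a stood above it in tubular-like cells (0.84 and 0.60) and below it in parietal epithelial-like cells (-0.43 and -0.48). Rps12 was above it in podocyte-like and parietal epithelial-like cells (0.38 and 0.42) and below it in tubular-like cells (-0.66). Rps14 and Rps3 stood above it in endothelial-like cells (0.47 and 0.35). Rpl21 was above the family in mural-like cells (0.30 ± 0.11, adjusted p = 0.0488), but not without replicate 1, 3 or 4 (0.0555, 0.186 and 0.278). Rpl7a was not below it in parietal epithelial-like cells without replicate 1 (0.0709), nor was Rpl41 without replicate 2, 3 or 4 (0.0687, 0.0814 and 0.137). The 1 member lower in mural-like cells was Rps4l, with 1 UMI there. It was not called without replicate 1, 2 or 4 (0.0674, 0.0657 and 0.178).

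**Figure D3:**
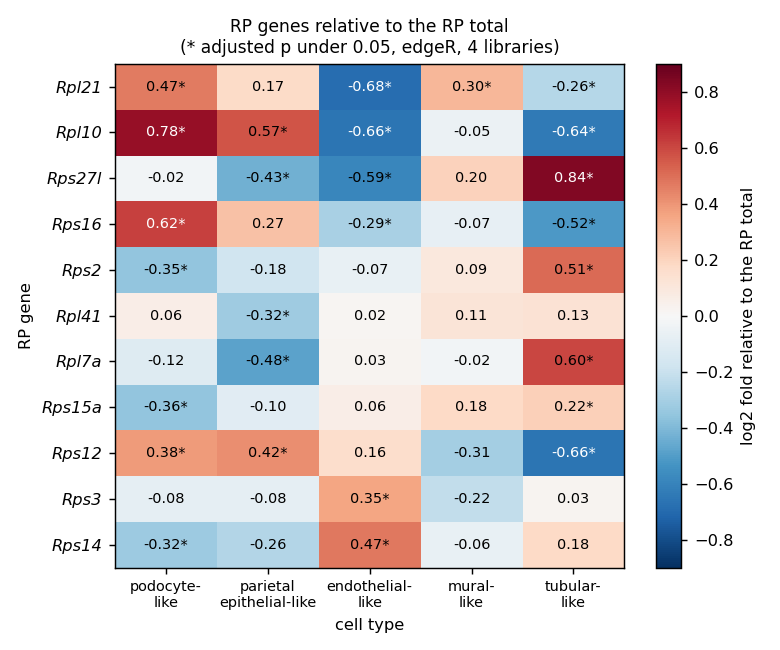
Log2 fold relative to the RP total of the sum for 11 of the members furthest from the family in any type (rows), in the 5 cell types (columns). Red is above and blue below the family, and * marks adjusted p under 0.05; Rpl10 runs from 0.78 in podocyte-like to -0.66 in endothelial-like cells.

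The paralogues were scarce with 1 exception. Rpl3l had 7 UMIs in the 5 types, 6 of them in tubular-like cells, and Rpl39l had 3. Of 32 UMIs of Rpl10l, 31 were in podocyte-like cells, at 3.46, 1.86, 0.89 and 3.40 CPM, and 0 were in endothelial-like cells, where the exact 95% Poisson interval reaches 2.50 CPM. The podocyte-like level is 2.45 with an interval of 1.66 to 3.47 CPM, so the intervals overlap. They cover counting error only, and the fold was not tested. Rpl6l and Rpl24 had 49 and 99 UMIs in the kept cells and were not tested either.

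Rps4l, a paralogue of Rps4x, had 391 UMIs. It stood at 25.4, 55.7, 51.1 and 39.9 CPM in parietal epithelial-like cells (19 UMIs, log2 fold 1.57 ± 0.49, adjusted p = 0.0173, lost without replicate 1, 2 or 4, 0.0824, 0.207 and 0.0647) and at 10.7, 24.7, 31.9 and 25.5 in podocyte-like cells (287 UMIs). Mural-like cells had 1 UMI, in replicate 3. They are among the 4 types averaged for the parietal epithelial-like fold, which their near-empty sums raise. With libraries summed, Rps4l stood at 41.7 CPM in parietal epithelial-like cells. It stood at 22.6 in podocyte-like, 24.4 in endothelial-like and 20.2 in tubular-like cells. The podocyte-like over mural-like ratio was 7.35 with an exact 95% interval of 1.31 to 291 for counting error only. Rps27l, a paralogue of Rps27 and a p53 target, was abundant, with 5286 UMIs. It stood at 501, 410, 358 and 358 CPM in tubular-like cells and 299, 293, 289 and 263 in podocyte-like cells, with no overlap. Its parent Rps27 had the opposite order, with 668 ± 141 CPM in tubular-like and 1065 ± 147 in podocyte-like cells. Rpl3 and Rpl39, the parents of the scarce forms, both rose in endothelial-like cells (log2 folds 0.62 and 0.31).

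Other genes of the translation machinery were counted in the same fit, in which 28.0% and 23.5% of all genes were higher and lower in endothelial-like and 27.1% and 26.9% in tubular-like cells. Elongation and release factors had 5 of 9 tested members higher and 1 lower in endothelial-like and 0 higher and 3 lower in tubular-like cells, with Eef1a1, which brings aminoacyl-tRNA to the ribosome, at log2 folds of 0.53 and -0.48. Of 7 other genes with TOP messengers, 4 were higher and 1 lower in endothelial-like and 0 higher and 5 lower in tubular-like cells (list medians 0.44 and -0.57). Tpt1 (1.13) and Pabpc1, the poly(A)-binding protein (0.68), rose there and the histone chaperone gene Nap1l1 fell (-0.72). Initiation factors had 12 of 35 higher and 4 lower in endothelial-like cells, and ribosome biogenesis genes 10 of 34 higher and 2 lower, with the nucleolar Nop56 at 1.41. Those 2 lists' shares of higher genes lie near that of all genes. Of 5 tested genes of mTORC1 and TOP control 2, Eif4ebp2 (0.95) and Rps6kb1 (0.72), were higher in endothelial-like cells, while the list's median was -0.12. Outside the name rule, Rack1 and Fau rose in endothelial-like cells (0.84 and 0.57), as did Rps3a1 (0.50), and Rpl36al fell (-0.41).

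Mitochondrial ribosomal proteins, which serve the separate ribosome inside mitochondria, moved otherwise. In endothelial-like cells 0 of 76 tested were higher and 42 lower (28.0% and 23.5% of all genes), with a median log2 fold of -0.61. In tubular-like cells 67 were higher and 0 lower (27.1% and 26.9% of all genes), with a median of 1.07. With the mitochondrial limit of 10%, which left 43 of the list tested, 16 were higher in tubular-like and 23 lower in endothelial-like cells, and with no filter on low counts 28 were lower in endothelial-like cells. At unadjusted p under 0.05 edgeR had 0 higher in endothelial-like and 1 lower in tubular-like cells, and DESeq2 called 0 of either. Scaling by total UMIs gave 1 lower in tubular-like cells. Over the main and 7 alternative settings the endothelial-like median ran from -0.66 to -0.48 and the tubular-like median from 0.63 to 1.17. As shares of UMIs they took 0.388% ± 0.0357 in endothelial-like, 0.592% ± 0.0290 in podocyte-like and 0.839% ± 0.0287 in tubular-like cells. Mrpl12 (2.56 ± 0.16) and Mrpl34 (2.24 ± 0.15) rose most in tubular-like cells, and Mrps34 fell most in endothelial-like cells (-1.61 ± 0.29). By share of all UMIs, the order of the types for mitochondrial RP genes was thus the reverse of that for cytosolic RP genes at both ends. Of nuclear-encoded UMIs alone, the cytosolic share was 4.58% ± 0.410 in tubular-like and 4.67% ± 0.397 in podocyte-like cells, so the tubular-like end is less clear.

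**Figure D4:**
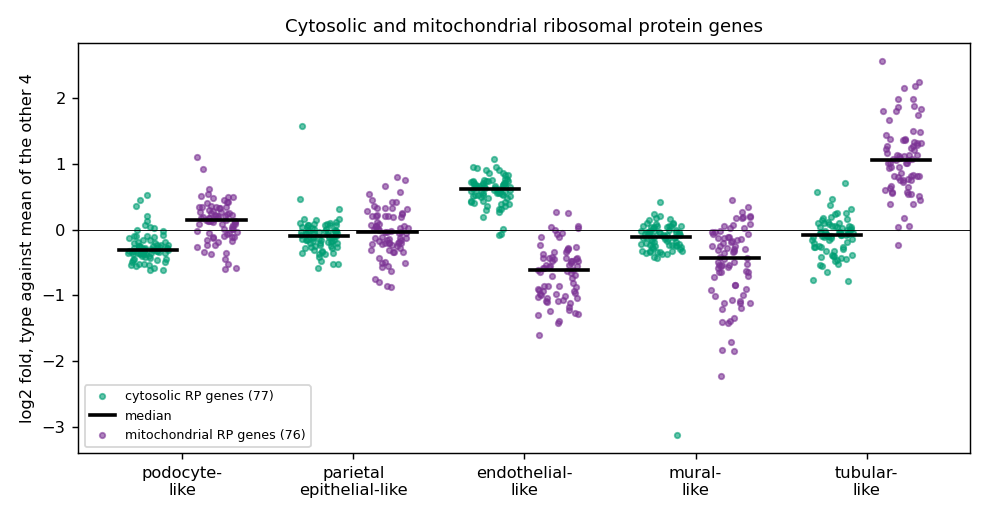
Log2 folds of 77 cytosolic and 76 mitochondrial ribosomal protein genes (points, with medians), each cell type set against the average of the remaining 4. In endothelial-like cells the medians are 0.62 and -0.61 and in tubular-like cells -0.08 and 1.07, where the value of -0.08 becomes 0.01 by DESeq2.

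The bulk libraries compared dissociated, fixed and sorted cells with whole glomeruli. RP genes took 497626 of 24555632 counted reads (2.03%) in the dissociated library and 323097 of 28407317 (1.14%) in the whole library. All 77 members with at least 100 reads over both libraries were more than 1.5-fold higher in the dissociated library, where 23.0% of 12692 genes were higher and 27.6% lower. The median log2 ratio was 1.11, against -0.01 over all genes, and 57 of the 77 were more than 2-fold higher, against 10.7% of all genes. There was 1 library a group, so the difference has no replicate check. Without TMM scaling the median was 0.80, with all genes at -0.32, and 67 of the 77 were past 1.5-fold. In bulk samples fewer cells of a type and less RNA per cell cannot be told apart.

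Rpl26 had the largest ratio, with 18.9 CPM (here reads per 1000000 counted) in the whole and 56.0 CPM in the dissociated library (log2 1.88). Rps27 rose from 181 to 498 CPM (1.78), Rpl23a from 14.4 to 37.9 (1.71), Rpl39 from 73.1 to 192 (1.71) and Rps25 from 150 to 360 (1.58). The lowest ratios were those of Rps4l (7.01 and 8.71 CPM, log2 0.62), Rpl13 (199 and 254 CPM, 0.67), Rpl29 (0.68), Rps4x (0.71) and Rpl8 (0.75). Rplp2 (1.39) stood above Rplp0 (1.08) and Rplp1 (0.96), and Rpsa was at 0.88. Per kilobase of exon the highest levels in the dissociated library were those of Rps27 (1078 CPM per kb), Rpl10 (1033), Rps29 (794) and Rps12 (659). In the whole library Rpl10 led, with 485 CPM per kb, and Rps27 had 391.

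The cell makeup of the 2 bulk libraries differed as well. All 6 mesangial and 7 of 8 endothelial markers were over 1.5-fold lower in the dissociated library (median log2 -5.05 and -1.71), and so were all 4 tested red blood cell markers (-1.46) and 8 of 15 tubular markers (-0.59). All 6 tested immune markers (1.67) and 7 of 8 podocyte markers (1.09) were over 1.5-fold higher. In Drop-seq the immune-like cells had the largest RP share. Their part in the RP difference was not tested. Mitochondrial ribosomal proteins also rose there, 50 of 77 past 1.5-fold and 0 lower, as did 8 of 10 elongation and release factors and all 7 other TOP genes. Reads with more than 1 position made up 9.47% of the whole and 14.7% of the dissociated library.

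**Figure D5:**
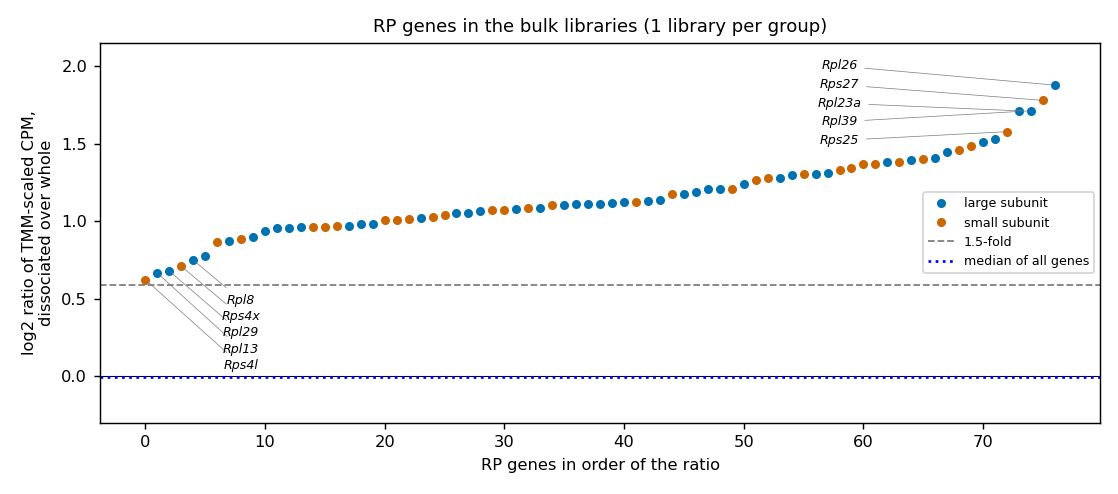
Log2 ratio of TMM-scaled CPM, dissociated over whole glomeruli, for 77 RP genes in rising order (1 library per group, no error). All points lie above the dashed 1.5-fold line, from 0.62 (Rps4l) to 1.88 (Rpl26), while the median of all 12692 genes is -0.01; without TMM scaling 67 of the 77 are past that line.

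Members differed in how far their Drop-seq levels matched those of the bulk library of dissociated cells, which were sorted as well. Over 78 members with at least 30 dissociated bulk reads, CPM divided by bulk CPM had a median of 2.43 and ran from 0.869 to 71.0. Rpl13a was at the top, with 19690 UMIs but 397 reads. RP genes have many near-identical processed pseudogenes, and reads or UMIs shared between a member and its copies can be placed on either or dropped. The 262 pseudogene rows with UMIs held 96850 UMIs, 12.2% of those of the members, at 11.7% to 12.7% in each of the 5 types. Counting them with the members gave shares of 7.85% ± 0.402 in endothelial-like and 5.02% ± 0.445 in podocyte-like cells. Levels of single members, above all the low ones, are therefore uncertain, and comparisons between genes more so than those between types.

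Over the 20 sums, the log2 levels of genes outside these lists were set against the log2 RP share. The most alike included Cebpg (r = 0.93), Ppp1r2 (0.93), B2m (0.92) and Klf4 (0.92). The least alike were Vdac1 (-0.91), Coq7 (-0.90), BC004004 (-0.88), Ndufa5 (-0.87) and Aldh6a1 (-0.87). These Pearson coefficients describe 5 types in the same 4 libraries and share the depth of each sum. The most alike genes named were each highest in endothelial-like cells, and the least alike were each lowest there. The coefficients are thus not independent of the contrast of that type with the others.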

How the data were processed

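Drop-seq counts per gene and barcode (4 libraries) and bulk read counts per gene (2 libraries) were deposited by the authors. The Drop-seq counts are taken as UMIs from the assay named in the labels' protocols. STAR and HTSeq are named in the submitters' processing notes, and the bulk kit was TruSeq stranded mRNA per the labels' protocols. The genome build, annotation, versions and strand setting are not given in the sources used here. HTSeq's summary lines (no gene 9.68% and 6.14%, several genes 3.77% and 3.87% of the whole and dissociated reads) were kept out of library sizes.

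Cells with at least 300 genes and at most 20% mitochondrial UMIs were scaled to 10000 UMIs and clustered (scanpy 1.11.5, 2000 variable genes, 30 components, 15 neighbours, Leiden resolution 1.0) with 566 ribosomal and translation genes held out, and the 17 clusters were named by marker score. Stress and immediate-early genes led several podocyte-like clusters (Fos and Egr1 in 1, Nr4a3 and Tnfaip3 in another). No doublet caller was run; 1.86% of podocyte-like, 5.44% of parietal epithelial-like, 22.9% of mural-like, 23.1% of endothelial-like and 29.7% of tubular-like cells carried at least 2 marker genes of another type, and an alternative left them out.

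UMIs were summed per library and type, for types with 20 or more cells in 3 or more libraries, and the sums were fitted in edgeR 4.0.16 (quasi-likelihood test, TMM, Benjamini-Hochberg over 7303 genes, threshold 0.05). Sums of the same library are paired by that library, which was the block. Log2 folds are relative to TMM scaling; levels are CPM, UMIs per 1000000 of the sum, which do not scale with gene length. Bulk libraries were compared as log2 ratios of TMM-scaled CPM (prior count 2, at least 100 reads). DESeq2 1.42.0, other scalings, filters and left-out libraries were alternatives. Tested on simulated data of the same sums (7303 genes), the fit recovered 90%, 41%, 69%, 38% and 74% of 2-fold changes in podocyte-like, parietal epithelial-like, endothelial-like, mural-like and tubular-like cells, with 6 to 11 false calls. The simulated sums differed only in depth and in the planted changes, with 1 spread for all genes (common dispersion 0.00883). Recovery and false calls in the real data may therefore differ. Exon lengths came from GENCODE vM21 and promoters from RefSeq.

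The members, gene lists and tests were chosen with earlier results of these data known. Named were, per type, up to 8 rises and 8 falls past the threshold and the same way in all 4 libraries, up to 3 each way relative to the RP total, the 5 highest and 5 lowest bulk ratios, the P stalk genes, Rpsa and the paralogues with their parents, the 5 most and 5 least abundant members, and the largest changes of each other list. The results of some genes are not reported here; they stay in the counts of members, medians and shares.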

Additional observations from a re-analysis of the deposited data

Results flagged for a closer look

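In groups of 4 libraries, 12 of 213 tested levels had 1 library far from the other 3, with a gap, as a share of the group's range, above Dixon's critical value, where chance gives about 1 in 20. Replicate 1 was the high one for Rpl41 (gap 0.9068 of the range, 1073 against at most 838 CPM) and Rps14 (0.8597) in podocyte-like, Rps27 (0.8622) in endothelial-like, and Rps27 (0.919), Rps25 (0.8757) and Rpl34 (0.8459) in tubular-like cells. Replicate 4 was high for Rpl23 in parietal epithelial-like cells (0.8392) and low for Rps3 in podocyte-like cells (0.868). Replicate 2 was low for Rplp2 in endothelial-like (0.8738) and Rps23 in mural-like cells (0.9042), and high for Rps4x in mural-like cells (0.8569). Rps4l in mural-like cells had its only UMI in replicate 3 (gap 1.0).

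Outside the members, the 262 RP pseudogene rows of the Drop-seq tables held 96850 UMIs, 12.2% of the members' UMIs, whereas in bulk such rows held 1.01% (whole) and 0.876% (dissociated) of the members' reads.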

How the results depend on the processing

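In endothelial-like cells 68 to 73 members were higher and 0 lower under every alternative run. The other types moved. Leaving out 1 library gave, in parietal epithelial-like cells, 1 to 2 members higher and 4 to 12 lower, in mural-like cells 3 to 5 lower and in tubular-like cells 5 to 9 higher; relative to the RP total it gave 7 to 11 lower in podocyte-like, 1 to 2 lower in parietal epithelial-like, 6 to 11 higher and 8 to 10 lower in endothelial-like, 0 to 1 higher and 0 to 1 lower in mural-like and 9 to 12 higher in tubular-like cells.

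Scaling by total UMIs gave 3 lower and a median of 0.014 in parietal epithelial-like, 3 higher and 1 lower in mural-like and 1 higher and 62 lower in tubular-like cells, where Rplp0, Rplp1 and Rps29 turned to -0.11, -0.068 and -0.044. Scaling from genes other than RP genes gave 15 lower in parietal epithelial-like cells. DESeq2 gave 16 lower there, 2 higher and 3 lower in mural-like cells and a tubular-like median of 0.0059. No filter on low counts gave 21 higher, 3 lower and a median of 0.0935 in podocyte-like, 0 higher and 34 lower in parietal epithelial-like and 32 lower in mural-like cells, with all genes at 0.50, -0.36 and -0.44; relative to the RP total it gave 1 lower in parietal epithelial-like and 0 higher and 0 lower in mural-like cells.

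The mitochondrial limit of 10% gave 1 higher in parietal epithelial-like, 1 lower in mural-like and 1 higher and 9 lower in tubular-like cells (Rplp1 -0.0675, RP share 4.46%). Without cells carrying markers of 2 types there were 21 lower in parietal epithelial-like, 3 lower in mural-like and 13 higher and 13 lower in tubular-like cells (median 0.013), and 0 lower in mural-like cells relative to the RP total. No replicate block gave 1 higher and 5 lower in parietal epithelial-like, 3 lower in mural-like and 5 higher in tubular-like cells, and relative to the RP total 7 lower in podocyte-like, 1 lower in parietal epithelial-like, 6 lower in endothelial-like, 0 higher and 0 lower in mural-like and 9 higher in tubular-like cells. Without endothelial-like cells, added after the data were seen, there were 3 lower and a median of 0.047 in parietal epithelial-like, 7 higher and 0 lower in mural-like and 20 higher and 11 lower in tubular-like cells (median 0.10). Of nuclear-encoded UMIs alone, RP genes took 4.58% in tubular-like, 4.67% in podocyte-like, 5.49% in mural-like and 7.50% in endothelial-like cells. In bulk, total counts gave a median of 0.80. The cause of these moves was not tested.

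For named members in single types, 738 values under alternatives kept their direction and side of the threshold, 119 fell short of it and 4 turned. Of counts, medians and shares, 292 stayed, 85 moved and 6 turned. No paired analysis was possible for bulk because each group has 1 library. Mural-like and parietal epithelial-like calls are limited by 345 and 386 cells.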

Other observations

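Rpl26, a large subunit protein that also binds p53 messenger RNA, differed several-fold between libraries in each cell type. In podocyte-like cells it stood at 129, 195, 74.0 and 439 CPM in replicates 1 to 4, a ratio of 5.93 between the highest and the lowest library. The ratio was 5.04 in tubular-like and parietal epithelial-like cells, 7.25 in mural-like and 8.52 in endothelial-like cells, and replicate 4 was highest and replicate 3 lowest in all 5 types. Over the 76 members with at least 500 UMIs the median podocyte-like ratio was 1.26, and the next highest was that of Rpl35a, 1.97, with replicate 1 highest in all 5 types. Rpl26 also had the largest bulk ratio, 3.67-fold after TMM scaling between the 2 libraries, which is less than its ratio between Drop-seq replicates 3 and 4. Both genes were named after their values were seen, and no cause was tested.

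Replicate 1 had the highest podocyte-like level for 60 of those 76 members. It also had the fewest UMIs per cell among the kept cells (median 816, against 907 to 1156 in the others). The barcodes left out of the cells held a lower RP share than the kept cells, 3.10% against 4.64%.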
